A study of Rattus norvegicus with 12 samples.

Results

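Control tissues of athymic nude rats and of wild-type rats were compared on single-colour microarrays, pair by pair, for 3 tissues, namely sciatic nerve, dorsal root ganglia (DRG) and dorsal cord. The 6 control arrays, 3 of nude and 3 of wild-type rats, were chosen from the 12 arrays of the series by their sample labels, and the other 6 hold the injected-side tissue of the same rat types. All rats were adult females of 8 weeks, and each array held a pool of 3 animals. The nude rats were of the strain Hsd:RH-Foxn1rnu and the wild-type rats Sprague-Dawley according to the labels. The paper instead calls heterozygous rnu+/- rats its wild type, and describes profiling tissue of these wild-type and nude rats after the behavioral tests. Every animal, nude or wild-type, had received 50 ug of the myelin basic protein peptide MBP84-104 in 5 ul in the left sciatic nerve, 7 days before in nude and 12 days before in wild-type rats by the labels. The paper, in contrast, describes a shared collection time for both rat types. The control nerve was the right sciatic nerve injected with PBS, the control DRG came from the right side, and the control cord was left dorsal tissue above the lumbar enlargement. Rat type therefore cannot be told apart from strain and labelled day.

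Nude rats lack a functional Foxn1, the transcription factor that builds the epithelium of the thymus and of the hair follicle. Without a thymus few mature T cells form, while B cells, natural killer cells and macrophages still develop. Peripheral nerve consists mainly of Schwann cells, fibroblasts and vessels around axons whose cell bodies lie elsewhere, so neuronal transcripts are sparse there and abundant in DRG and cord.

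There was 1 array per rat type and tissue, so no difference within a tissue has a replicate check and none carries a p-value. On the control arrays the median signal over probes ran from 19.5 on the nude DRG to 74.9 on the wild-type cord, and 57.6% to 70.8% of probes were well above background by the scanner software's flag, the lowest share again on the nude DRG. The nerve pair lay on the same slide, but the DRG and cord pairs did not, and for these rat type cannot be told apart from slide. Levels are deposited normalized log2 values, and a difference is nude minus wild-type. A value on an array where the probe was not well above background was raised to the lowest value well above background on that array, which makes the difference a bound, written as "at least". In bulk RNA, fewer cells of a type and less RNA per cell cannot be told apart.

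In the nerve, 151 genes were at least 2-fold higher in nude rats (1.40% of 10776 measured) and 302 at least 2-fold lower (2.80%). In the DRG, 172 were higher (1.65% of 10433) and 331 lower (3.17%). In the cord, 105 were higher (0.933% of 11258) and 59 lower (0.524%). The cord pair thus had the fewest genes apart. The median difference of all genes was 0.11 in nerve, -0.05 in DRG and -0.03 in cord.

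Of 9673 genes measured in all 3 tissues, 1 gene was at least 2-fold higher in nude rats in every tissue (0.0103%) and 2 were at least 2-fold lower (0.0207%). Differences of any size had the same sign in all 3 tissues for 2437 genes (25.2%). The higher gene was Vegfb, a growth factor that binds the receptor Flt1 and acts on vessels, fat metabolism and neuron survival. Vegfb read 7.17 in nude nerve, 5.80 in nude DRG and 8.18 in nude cord, and 2.0, 1.47 and 1.42 in the same wild-type tissues. It was well above background on all 3 nude and on none of the 3 wild-type control arrays. The level in nude rats was at least 19.6-fold higher in nerve, at least 10.2-fold in DRG and at least 72.6-fold in cord. The injected-side arrays gave the same split, with 6.17, 5.84 and 7.88 in nude and 1.49, 1.91 and 1.44 in wild-type nerve, DRG and lumbar cord. All 6 nude arrays were therefore above all 6 wild-type arrays, also between the nerve pairs that share a slide. The array has 1 named probe for Vegfb, its sequence was not among the files, and whether it binds the transcript of both strains alike was not tested.

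The relatives and receptors of Vegfb, chosen after its values were seen, differed less. Among ligands, Vegfa differed by 0.14, 0.28 and 0.07 in nerve, DRG and cord, and Vegfc by -0.21, 0.26 and 0.25. Pgf, placental growth factor, which shares the receptor Flt1 with Vegfb, differed by 0.01, 0.36 and 0.07. Flt1 itself differed by at least 0.12 in nerve, by -0.51 in DRG and by 1.36 in cord, where it read 5.24 in nude and 3.88 in wild-type rats. Kdr, the main VEGF receptor of endothelium, differed by 0.04, -0.04 and 0.29. Of the coreceptors, Nrp1 differed by -0.23, 0.34 and 0.50. Nrp2, with a control value in DRG alone, read 5.48 in nude and 4.24 in wild-type control DRG and 5.11 and 4.88 on the injected side. In the injected nerve Nrp2 differed by -0.44 and in the lumbar cord by -1.11 (a bound). Flt4 and Vegfd, the other members measured, differed by 0.32 at most in size. In the order of genes on the chromosome in the RefSeq annotation (GRCr8), 12 measured neighbours flank Vegfb, 6 on each side. Their 34 control differences ran from -0.81 to 0.90, so none was 2-fold apart, with -0.11, -0.05 and -0.09 for the adjacent Fkbp2 and 0.27, -0.27 and -0.07 for Dnajc4.

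The lower genes were Asb7, which recruits substrates to a ubiquitin ligase, and Vpreb1b, a member of the family of surrogate light chains of the pre-B-cell receptor. Asb7 read 4.43, 4.45 and 4.17 in nude and 5.87, 5.46 and 5.48 in wild-type nerve, DRG and cord. These are 2.72-, 2.01- and 2.48-fold lower levels, each well above background on both arrays. On the injected side Asb7 differed by -1.08 (a bound) in nerve, by -0.92 in DRG and by -0.62 in cord, so all 6 nude arrays lay below all 6 wild-type arrays. The 32 differences of its 12 measured neighbours ran from -0.74 to 0.56. Vpreb1b read 3.16, 2.85 and 2.40 in nude and 4.21, 4.35 and 3.88 in wild-type tissues, but it was well above background on the nude nerve array alone among the 3 nude controls. It was 2.07-fold lower in nerve, at least 2.15-fold in DRG and at least 2.43-fold in cord. On the injected side its sign was not constant, with -0.33 (a bound) in nerve, 0.25 in DRG and -0.80 (a bound) in cord. The 34 differences of its 12 measured neighbours ran from -1.50 to 1.18, and 3 were past 2-fold, namely Prodh in nerve, Slc25a1 in DRG and Tssk1b in cord. Taken alone, the injected-side arrays gave 3 genes at least 2-fold higher in all 3 tissues of nude rats (0.0314% of 9561), which were Vegfb, H1f5 and Retnlg, and 0 lower (0%).

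**Figure D1:**
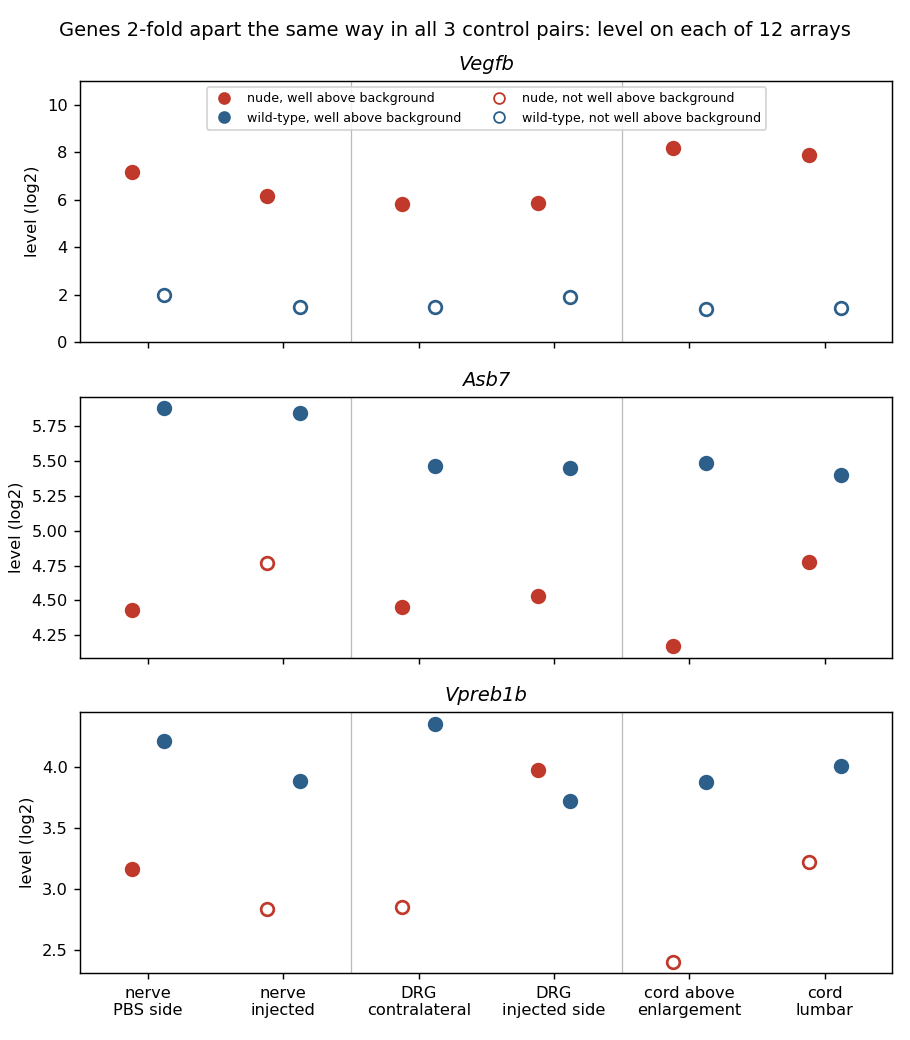
Level (deposited log2 value) of Vegfb, Asb7 and Vpreb1b on each of the 12 arrays, by tissue and side, nude in red and wild-type in blue; open circles mark probes not well above background and each point is 1 array. Vegfb lies between 5.80 and 8.18 on nude and at or below 2.0 on wild-type arrays, Asb7 is lower on every nude array, and Vpreb1b overlaps between rat types.

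A linear model with tissue and rat type, fitted across all genes with limma, asked which differences were constant over the 3 tissues. Its p-value measures constancy between tissues, not the spread between rats, because the labels do not say whether the 3 tissues came from the same animals. Of 9752 genes, 0 passed an adjusted p of 0.05 (0%), and 550 had an unadjusted p under 0.05 (5.64%). Vegfb ranked first, with a fitted difference of 5.42 ± 0.41 (SE, 3 pairs) and a limma adjusted p of 0.0533. That estimate uses the wild-type values under background as deposited and is no bound. The pair left out decided the call. The adjusted p of Vegfb was 2.29e-06 without the DRG pair and 0.0130 without the cord pair, but 0.555 without the nerve pair. For Asb7 the fitted difference was -1.25 ± 0.16 (SE, 3 pairs), with an adjusted p of 0.403.

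With the injected-side arrays added, so that tissue and side formed 6 pairs, limma called 5 genes higher and 2 lower in nude rats at an adjusted p of 0.05. Control and injected tissue may share animals, so these 6 pairs are not 6 independent groups of rats. The 7 genes were Vegfb, Ccl19, Asb7, H1f4, H1f5, Or6f2 and H2ac21. Ccl19, the chemokine that draws Ccr7-bearing T cells and dendritic cells, read 7.95, 8.49 and 8.82 in nude and 7.29, 7.66 and 7.82 in wild-type control nerve, DRG and cord. On the injected side it read 7.41, 8.48 and 8.24 in nude and 6.53, 7.86 and 7.39 in wild-type tissue. Ccl19 was thus higher in nude rats in 6 of 6 pairs, by 0.62 to 1.00, with a fitted difference of 0.80 ± 0.08 (SE) and an adjusted p of 0.0256. Within the nerve pairs, which share a slide, it differed by 0.65 on the PBS side and by 0.88 on the injected side.

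The other calls included 3 histone genes. H1f4, a linker histone, was higher in nude rats in 6 of 6 pairs, by 0.49 to 0.85, with a fitted difference of 0.73 ± 0.08 (SE) and a limma adjusted p of 0.0256. H1f5, a further linker histone, differed by 0.86, 1.15 and 0.54 in control nerve, DRG and cord and by 1.19, 1.39 and 1.10 on the injected side. H2ac21, a histone H2A gene, differed by at least 0.76 in nerve, 0.86 in DRG and 0.62 in cord. Linker and core histones pack DNA and are made mostly in dividing cells. The cell division list gave 19 of 22 measured members above 0 in nerve, where 64.4% of all genes were, but 5 of 18 in DRG and 7 of 21 in cord, against 44.3% and 45% of all genes. Or6f2, an olfactory receptor gene, read 3.62, 4.63 and 3.37 in nude and 4.83, 5.57 and 4.26 in wild-type controls and was lower in 6 of 6 pairs. It was not well above background on the nude control cord.

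At a smaller threshold of 1.5-fold, 5 genes were higher in all 3 control tissues of nude rats (0.0517%) and 16 lower (0.165%). Named after their values were seen, the higher genes were Vegfb, Pdilt, Ccl19, Edn3 and H2ac21. Edn3, endothelin 3, a peptide needed by neural crest cells that give enteric neurons and pigment cells, differed by 0.87, 0.78 and 0.64, and by 0.38, 0.71 and 0.29 on the injected side. Among the lower genes Havcr2, the inhibitory receptor TIM-3 of T cells and myeloid cells, had the largest mean difference. Havcr2 read 4.32, 3.75 and 4.80 in nude and 5.76, 5.87 and 5.47 in wild-type nerve, DRG and cord. On the injected side it differed by -0.24, -0.98 and -0.57. Of the 5 higher genes 4 were measured on all 3 injected pairs and all 4 had the same sign there, and of 15 lower genes so measured 10 did. Among all genes 39.5%, 40% and 44.8% were above 0 on the injected nerve, DRG and cord pairs, so the lower sign was the more frequent one. Those shares are for single pairs, whereas the counts need the same sign on all 3, so the 2 cannot be compared directly. Vegfb was among the 4 higher genes.

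Few genes were 2-fold apart the same way in any pair of tissues. Of genes measured in nerve and DRG, 326 were 2-fold apart in nerve and 429 in DRG, and 17 were apart the same way in both, 5.21% of the first and 3.96% of the second set, while 25 were apart in opposite directions. Nerve and cord shared 9 genes, 2.42% of 372 in nerve and 11% of 84 in cord. DRG and cord, the pairs across slides, shared 12, 2.78% of 431 in DRG and 13.6% of 88 in cord. Of all genes measured, between 0.524% and 3.17% were 2-fold apart per tissue and direction, as given above. Across genes, which are no replicates, Pearson's r of the differences was -0.02 between nerve and DRG over 9917 genes, 0.00 between nerve and cord over 10159 and 0.25 between DRG and cord over 10075.

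**Figure D2:**
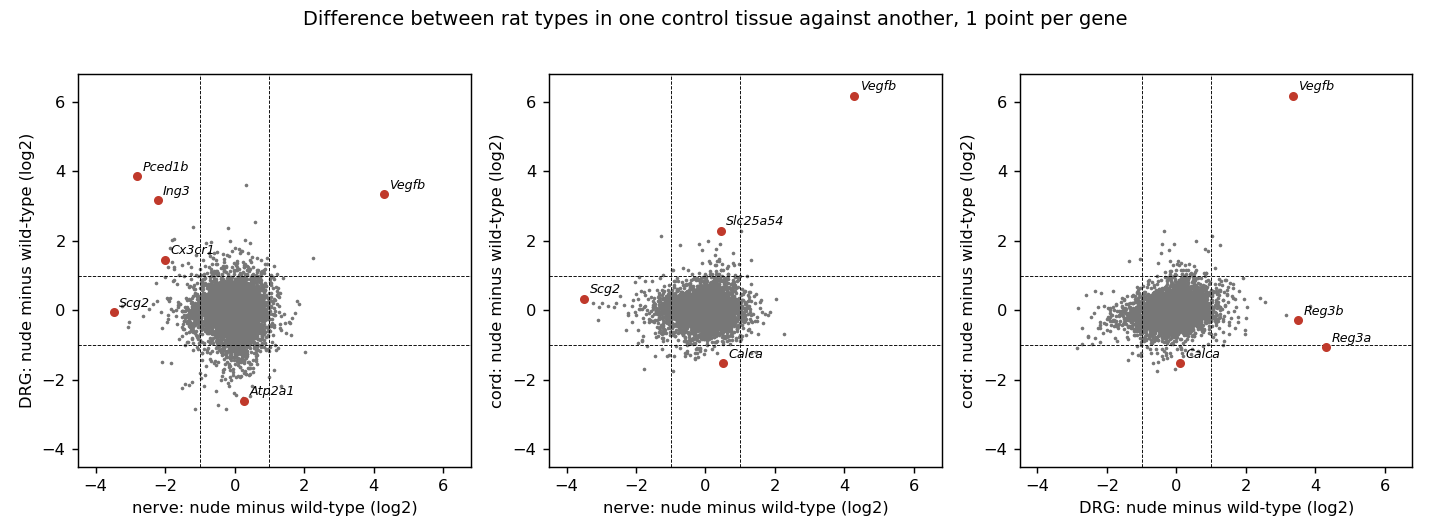
Difference between rat types (nude minus wild-type, log2) in one control tissue against another, 1 grey point per gene measured in both, with the genes named in red; dashed lines mark 2-fold. The cloud runs along neither diagonal between nerve and DRG or nerve and cord, Vegfb alone lies far out in the same quadrant of every panel, and Pced1b and Ing3 lie low in nerve and high in DRG.

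The injected-side pairs gave a second value in other specimens. Of the 151 genes higher in nude control nerve, 82 were measured on the injected nerve pair, and 6 of these (7.32%) were 2-fold higher there too, against 1.22% of all genes. Of the lower genes 18 of 222 (8.11%) were 2-fold lower, against 2.50%. In the DRG 37 of 146 higher genes (25.3%) and 60 of 323 lower genes (18.6%) were apart the same way on the injected side, against 2.45% and 2.85%. In the cord these were 8 of 53 (15.1%, against 1.64%) and 13 of 46 (28.3%, against 0.664%). Differences between the paired arrays were thus repeated less in nerve than in DRG, as a description of these arrays and without a test. In both DRG pairs and both cord pairs the nude and wild-type arrays lay on different slides, whereas all nerve arrays shared a slide. For DRG and cord, repetition by rat type and by slide cannot be told apart. The injected nerve had itself received the peptide. The nude injected nerve also had the lowest share of probes well above background in the series, 55.1%.

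In the nerve alone, with under 1.5-fold in both other tissues, 35 genes were higher (0.362% of 9673) and 163 lower (1.69%) in nude rats. The 5 lower genes with the largest differences in nerve are known from neurons or brain matrix. Scg2, a secretory granule protein of neurons and endocrine cells, read 2.05 in nude and 5.79 in wild-type nerve, a level at least 11.2-fold lower, while both rat types read 10.19 and 10.25 in DRG. Ina, the neuronal intermediate filament alpha-internexin, read 1.96 and 5.55 and was at least 9.43-fold lower. Calb2, the calcium buffer calretinin, read 1.79 and 5.39 and was at least 8.47-fold lower. Bcan, the brain proteoglycan brevican, read 3.59 and 6.64, and Snap25, a protein of synaptic vesicle fusion, 3.90 and 6.54. In DRG and cord these 5 genes differed between rat types by 0.47 at most, which follows from the rule of this set.

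Gene lists of neurons and central glia were unequal among themselves in nerve. The dorsal horn neuron list, of which 16 members were measured, had 0 higher and 5 lower members in nerve (median -0.76, all genes 0.11), against 0 of 25 either way in cord (median 0.17). Slc17a6, the vesicular glutamate transporter of excitatory neurons, read 3.55 in nude and 5.44 in wild-type nerve, and Sst, somatostatin, at least 4.30-fold less in nude nerve. Sst was also 2.82-fold lower in nude control DRG, and differed by -0.96 in the injected-side DRG and by -0.34 in control cord. The sensory neuron list went both ways in nerve, with Trpv1 and Gfra3, named after their values were seen, higher and 3 members lower of 24 (median -0.07). Of 18 oligodendrocyte genes 3 were lower and 0 higher (median -0.09), and of 14 astrocyte genes 2 were lower and 0 higher (median -0.10). Mobp and Mog, proteins of myelin made by oligodendrocytes, read 6.36 and 2.07 in nude and 8.00 and 4.32 in wild-type nerve. Among astrocyte genes Slc1a2, a glutamate transporter, was at least 5.94-fold and Fabp7 at least 3.85-fold lower. Of 27 dorsal horn genes on the array, 16 were well above background on the wild-type PBS-side nerve, 12 on the nude PBS-side and on the wild-type injected nerve, and 7 on the nude injected nerve. Over all probes the shares were 61.6% on the wild-type PBS-side, 66.6% on the nude PBS-side, 63.6% on the wild-type injected and 55.1% on the nude injected nerve. Of 138 of the 163 lower genes measured on the injected nerve pair, 70 had the same sign and 6 were 2-fold lower in nude rats. Of all genes measured on that pair, 39.5% were above 0 and 2.50% were 2-fold lower, so the lower sign was no more frequent in this set. On that pair the dorsal horn list had 1 member higher and 0 lower of 9 (median 0.07), the sensory neuron list 0 higher and 4 lower of 19 (median -0.34), and Bcan differed by -1.40 and Snap25 by -0.37. Whether the cut of the tissue plays a part was not tested.

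**Figure D3:**
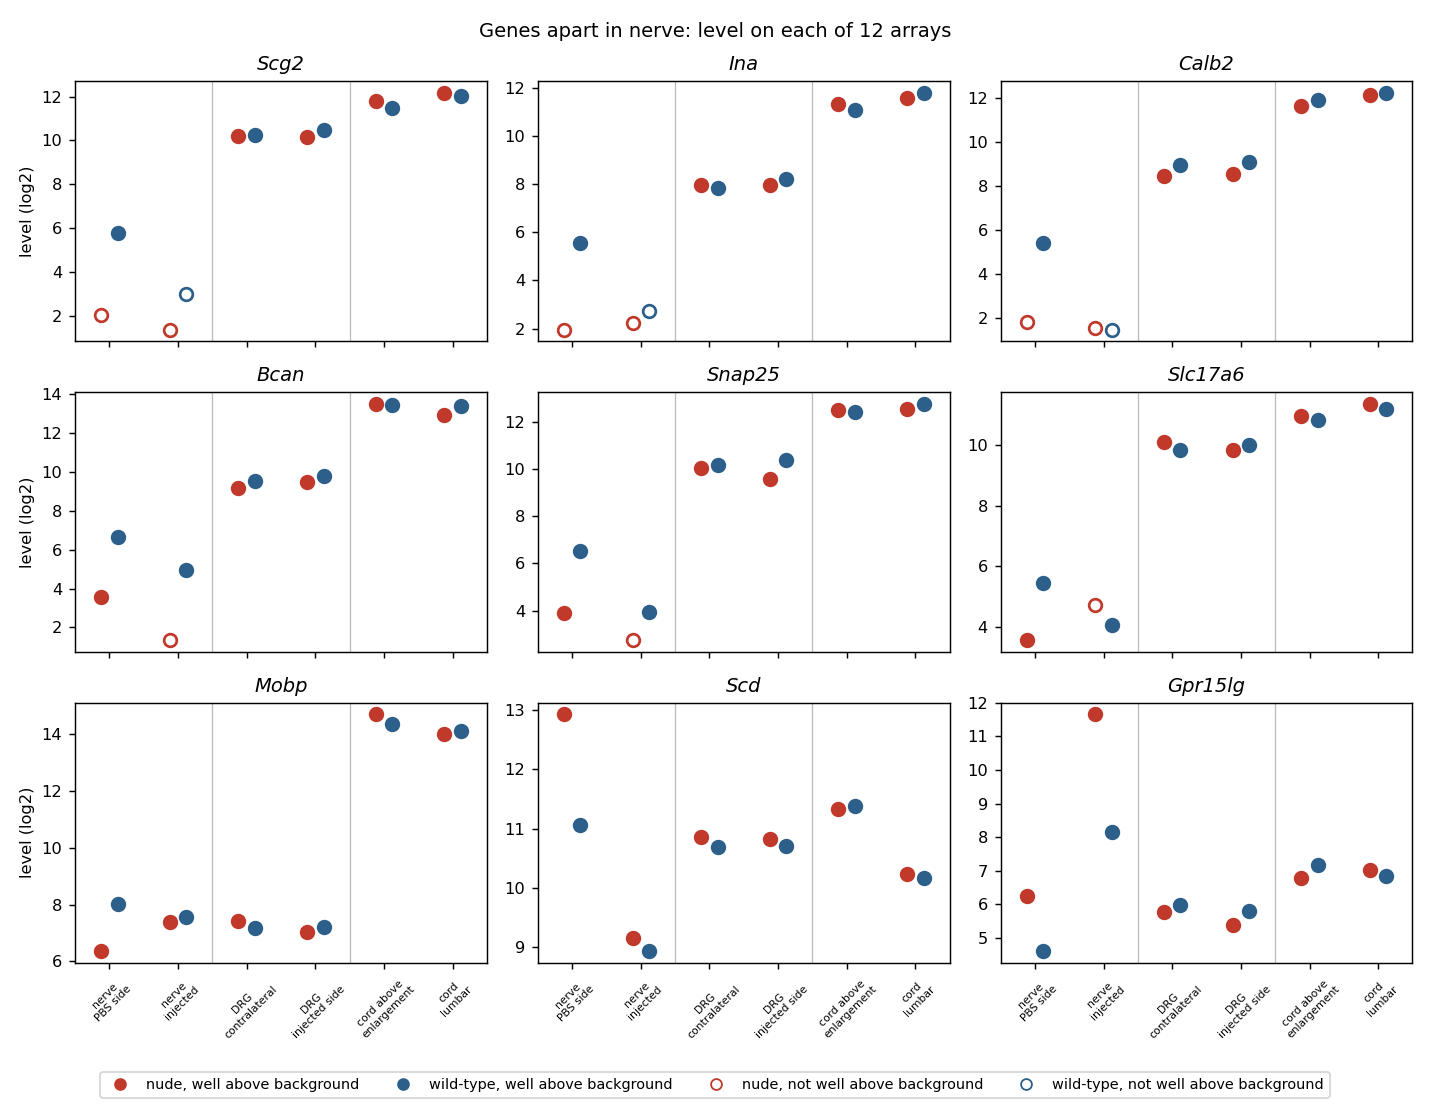
Level (deposited log2 value) of 9 genes on each of the 12 arrays by tissue and side, nude in red and wild-type in blue, with open circles for probes not well above background and 1 array per point. Scg2, Ina, Calb2, Bcan, Snap25, Slc17a6 and Mobp are high in the wild-type PBS-side nerve against the nude one, whereas Scd and Gpr15lg are higher in the nude PBS-side nerve. All 9 genes are from the set apart in nerve alone, so near equal levels in control DRG and cord follow from its rule.

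Higher genes of the nerve alone were led by Scd, the desaturase that makes oleic acid for membrane lipids and fat. Scd read 12.93 in nude and 11.07 in wild-type PBS-side nerve, 3.63-fold apart, but 9.15 and 8.93 in the injected nerves. Scd was the 1 adipocyte gene 2-fold apart of 19 measured, and the median of that list was -0.01. Slc15a2, a peptide transporter, was at least 3.49-fold higher, Polh, a DNA polymerase that copies past damage, at least 3.31-fold and Cand2, a regulator of ubiquitin ligases, at least 2.97-fold. Gpr15lg, the ligand of the T-cell homing receptor Gpr15, read 6.25 in nude and 4.61 in wild-type PBS-side nerve and 11.65 and 8.16 in the injected nerves. It was 1 of 3 genes of this set that were also 2-fold higher in the injected nude nerve, among 24 measured there. Over all genes measured on that pair, 1.22% were 2-fold higher.

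In the DRG alone, 53 genes were higher (0.548%) and 192 lower (1.98%) in nude rats. Of the lower genes 83 were well above background only on the wild-type array, and the nude DRG array had the lowest signal of the controls. In the skeletal muscle list 7 of 19 measured members were lower and 0 higher (median -0.80, all genes -0.05). Myl11, a fast muscle myosin light chain, read 4.09 in nude and 6.93 in wild-type DRG and was at least 7.14-fold lower. Atp2a1, the calcium pump of fast muscle, read 4.14 and 6.74, and Ckm, muscle creatine kinase, 4.27 and 6.61. Cldn14, a tight junction protein outside these lists, was at least 5.52-fold lower, and Nkiras1, an inhibitor of NF-kB signaling, 5.18-fold by its brightest probe, whereas its other probe gave 0.07. On the injected-side DRG the order of Myl11 was turned, with 8.58 in nude and 7.14 in wild-type rats, and 2 muscle genes were higher and 5 lower there (median -0.07). In the injected nerve 16 of 23 muscle genes were lower in nude rats, and in the lumbar cord 13 of 24 were higher. Muscle transcripts were thus unequal in several pairs, with no constant direction.

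The red blood cell list also had lower members in the control DRG, with 5 of 11 measured members lower and 0 higher (median -0.78). Of all genes 3.17% were lower there (median -0.05). Hemgn, a nuclear protein of erythroid precursors, read 3.67 in nude and 6.39 in wild-type DRG, 6.59-fold apart. Alas2, which starts heme synthesis in red cells, read 10.84 and 12.93, and Slc4a1, the anion exchanger of the red cell membrane, 6.45 and 8.42. On the injected-side DRG the list had 1 member higher and 1 lower of 13 (median -0.04), and on the lumbar cord 6 of 11 were higher in nude rats.

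Peripheral myelin genes were lower in the nude DRG in both pairs by their median. Of 22 measured members 5 were lower and 0 higher in the control DRG (median -0.43), and 2 were lower in the injected-side DRG (median -0.42). Over all genes 3.17% and 2.85% were lower in these pairs, and the control median was -0.05. Prx, periaxin of the myelin sheath, read 9.59 in nude and 11.09 in wild-type control DRG and 9.39 and 10.88 on the injected side. In the PBS-side nerve the median of the list was -0.01, with 1 of 22 members 2-fold lower. The Sox10 transcript of Schwann and satellite cells, a list member, differed by 0.16 in the control DRG.

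Interferon-induced genes stood on opposite sides in nerve and DRG. In the DRG 4 of 35 measured members were above 0 (median -0.31, all genes -0.05), and 4 were 2-fold lower. In the nerve 32 of 36 were above 0 (median 0.31, all genes 0.11), and 2 were 2-fold higher. In the cord 17 of 34 were above 0 and the median was 0.01. Irf7, which amplifies the interferon response, read 7.37 in nude and 9.21 in wild-type DRG, and 8.13 and 7.70 in nerve. Usp18, which removes the ubiquitin-like tag Isg15, read 4.22 and 5.95 in DRG, at least 3.32-fold lower in nude rats, and 5.56 and 4.43 in nerve, 2.19-fold higher. Rsad2, the antiviral enzyme viperin, read 9.12 and 10.44 in DRG, and Oas1a, an RNA sensor, differed by -1.0. Cxcl10, an interferon-induced chemokine, read 7.07 in nude and 5.74 in wild-type nerve. The injected-side pairs gave medians of -0.57 in nerve, with 10 of 36 lower, -0.14 in DRG and 0.13 in cord, so the higher level in nude nerve was not repeated there.

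Because Irf7, Oas1a and Rsad2 were lower together in DRG, the 250 bases before their start (RefSeq, GRCr8) are shown, searched for the core of the interferon-stimulated response element, GAAANNGAAA, on both strands. Capitals mark the matches, overlapping ones as a single run. The windows are chr1:205800024-205800273 on the minus strand for Irf7, chr12:41330216-41330465 on the plus strand for Oas1a and chr6:48788121-48788370 on the minus strand for Rsad2.
Irf7: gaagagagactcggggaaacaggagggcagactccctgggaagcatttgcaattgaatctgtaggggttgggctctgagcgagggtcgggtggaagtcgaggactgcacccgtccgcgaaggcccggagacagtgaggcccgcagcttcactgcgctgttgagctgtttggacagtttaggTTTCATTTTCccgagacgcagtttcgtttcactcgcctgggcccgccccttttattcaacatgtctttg
Oas1a: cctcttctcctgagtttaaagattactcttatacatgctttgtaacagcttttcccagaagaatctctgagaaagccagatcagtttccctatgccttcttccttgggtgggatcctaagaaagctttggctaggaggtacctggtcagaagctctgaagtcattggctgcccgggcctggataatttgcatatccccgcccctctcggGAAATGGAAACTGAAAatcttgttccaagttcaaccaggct
Rsad2: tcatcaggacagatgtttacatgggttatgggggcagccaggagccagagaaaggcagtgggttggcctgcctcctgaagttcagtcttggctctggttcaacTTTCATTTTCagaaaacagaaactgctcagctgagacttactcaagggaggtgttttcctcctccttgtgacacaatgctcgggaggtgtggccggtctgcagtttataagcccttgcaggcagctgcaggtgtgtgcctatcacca
All 3 windows held the motif, as did 17 of the other 24 list members measured in DRG with a window (70.8%), against 902 of 27457 windows of all genes (3.29%). A match is a description of these letters and not a bound site.

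**Figure D4:**
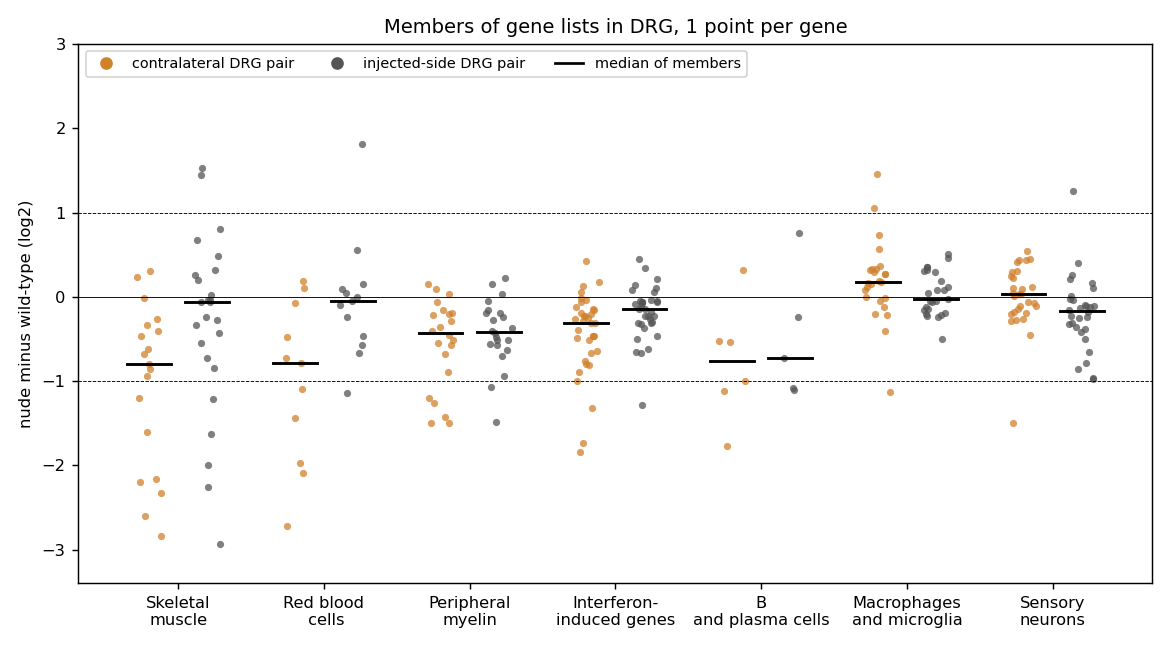
Difference between rat types (nude minus wild-type, log2) of the members of 7 gene lists in DRG, 1 point per gene, for the contralateral control pair (orange) and the injected-side pair (grey), with black bars at the medians and dashed lines at 2-fold. Muscle and red blood cell medians of -0.80 and -0.78 in the control pair are -0.07 and -0.04 in the injected-side pair, while the myelin medians are -0.43 and -0.42.

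Higher genes of the DRG alone included Alkal2, a ligand of the receptor kinase Alk, which read 6.37 in nude and 3.82 in wild-type control DRG and 6.85 and 5.71 on the injected side. Gli2, a transcription factor of hedgehog signaling, and Sfrp2, which binds Wnt ligands, were 3.87- and 3.44-fold higher, but differed by -0.47 and -0.39 on the injected side. Grifin, a lens galectin, was at least 3.42-fold higher and differed by -0.04 on the injected side. Hpgds, the prostaglandin D synthase of blood cells, was 3.26-fold higher and differed by 1.16 on the injected side. Larger differences were found for genes not measured in every tissue. Reg3a and Reg3b are secreted lectins that sensory neurons make after injury. Reg3a read 9.60 in nude and 5.28 in wild-type control DRG and 9.43 and 5.61 on the injected side. Reg3b read 8.06 and 4.56, and 8.33 and 6.18 on the injected side. Nppb, the natriuretic peptide of itch neurons, named after its values were seen, read 9.56 in nude and 5.96 in wild-type control DRG and 9.34 and 6.02 on the injected side. These 3 genes were higher in nude rats in both DRG pairs. In the axotomy response list, which holds Reg3b, that gene was the 1 of 17 measured members higher in control DRG (median 0.17), and Crh, a stress peptide, was the 1 lower, with 6.30 in nude and 7.58 in wild-type rats. Of 29 sensory neuron genes 0 were higher and 1, Sst, was lower (median 0.03).

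In the cord alone, 22 genes were higher (0.227%) and 12 lower (0.124%) in nude rats. Calca, which encodes the peptide CGRP of pain-sensing afferents and motor neurons, read 7.23 in nude and 8.76 in wild-type control cord and 4.87 and 8.84 in the lumbar cord. Its relative Calcb read 7.03 and 8.29, and 5.30 and 8.16 in the lumbar cord. Both genes were lower in nude cord in both pairs, while Calca read 14.17 and 14.07 in control DRG. Tulp1 and Rcvrn, genes of photoreceptors, read 6.02 and 3.48 in nude and 7.43 and 4.85 in wild-type control cord, and differed by -0.65 and -0.09 in the lumbar cord. The transcription factors Zfp516 and Utf1 were 2.51-fold and at least 2.44-fold lower. Of the higher genes Slc25a54, a mitochondrial carrier, was at least 4.90-fold higher, Pou1f1, a pituitary transcription factor, 3.95-fold, Capn5, a calpain protease, at least 3.78-fold and Zc3h12d, an RNA-degrading enzyme of the immune system, 3.76-fold. Pou1f1 read 6.62 in nude and 4.64 in wild-type control cord and 5.46 and 4.68 in the lumbar cord. There Capn5 differed by 1.32 (a bound), whereas Zc3h12d differed by -0.51 (a bound), opposite to the control cord. Postn and Fmod, matrix proteins of fibroblasts, were 3.69- and 2.06-fold higher, the 2 of 22 fibroblast and collagen genes past 2-fold in cord. Postn was not apart in the cord alone. It was also 2.38-fold higher in nude control DRG, and differed by 1.05 in the injected-side DRG and by -0.74 in control nerve. Gfap, the filament of astrocytes, read 10.69 in nude and 11.70 in wild-type cord.

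Checks of the rat type gave little. Foxn1 read 4.36 and 4.53 in nude and wild-type nerve, 3.82 and 6.00 in DRG and 3.15 and 3.67 in cord, and was not well above background on the nude DRG alone. Foxn1 was thus detected in nude nerve and cord and does not sort the arrays, and whether the probe lies in the mutated stretch was not tested. No gene of the Y chromosome and no Xist probe was named on the array.

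The T-cell list was near the background. Of 26 genes on the array, 12 were measured in nerve, 11 in DRG and 9 in cord, and in each tissue 0 were 2-fold higher and 1 lower, with medians of 0.03, -0.17 and -0.26. Cd3e, Cd2, Cd5, Cd8a, Cd28 and Lck were not well above background on any of the 6 control arrays. Cd3d, a chain of the T-cell receptor complex, read 6.71 in nude and 7.78 in wild-type nerve, 7.97 and 8.25 in DRG and 6.98 and 7.26 in cord. Cd3g read 5.10 and 6.18 in DRG and 6.79 and 6.81 in nerve, and Cd247 was at least 2.33-fold lower in nude cord. The lower gene was thus another one in each tissue. On the control arrays 12, 9 and 7 T-cell genes were well above background in nude nerve, DRG and cord, against 11, 12 and 11 in wild-type rats. Over all probes these shares were 66.6%, 57.6% and 65.2% in nude and 61.6%, 65.7% and 70.8% in wild-type rats. The counts thus went the same way as the shares over all probes in each tissue.

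B-cell and plasma-cell genes had 3 of 6 measured members lower in DRG (median -0.77), against 3.17% of all genes (median -0.05). These were Fcrla, with 6.41 and 8.18, Cd79b, at least 2.17-fold lower, and Pou2af1. Cd79b was well above background on the wild-type array only, and the nude DRG array had the lowest signal of the controls. On the injected-side DRG 2 of 5 were lower (median -0.72), against 2.85% of all genes. Of the natural killer and cytotoxic list, 1 of 9 measured members was higher and 2 were lower in nerve (median -0.47, all genes 0.11). Gzma, a granzyme, read 5.35 in nude and 6.50 in wild-type nerve, and Prf1, perforin, was at least 3.07-fold higher in nude nerve. In the injected nerve Gzma differed by -0.14 and Prf1 by -0.15. Prf1 differed by -0.71 (a bound) in control DRG and by 1.12 in the injected-side DRG. The probe named Tbx21 read 14.95 and 15.98 in nerve and between 15.74 and 16.30 on the DRG and cord arrays of both sides. Among 25 macrophage and microglia genes Cx3cr1 and Mrc1 were higher and Siglec1 was lower in DRG (median 0.18). Ptprc, the pan-leukocyte antigen CD45, differed by 0.17, 0.36 and -0.13 in nerve, DRG and cord. Of 42 measured genes of MHC and antigen processing in nerve 0 were 2-fold apart, and in DRG Tap2 was higher and Psmb9 and Tap1 were lower of 38. Cxcl2, a chemokine for neutrophils, read 3.29 in nude and 5.56 in wild-type nerve, and Ccl3 was 2.33-fold higher in nude nerve and at least 2.05-fold in DRG. Retnlg was 2.21-fold higher in nude nerve, and Ngp, a neutrophil granule protein, at least 3.55-fold in cord. Of complement genes Cfi, factor I, was 2.28-fold lower in nerve, and of 25 measured there 1 was apart. Cfi also differed by -0.60 and -0.64 in control DRG and cord. On the injected side it differed by -0.15, -0.66 and -0.63 in nerve, DRG and cord.

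Lists that could follow the time of day, handling or the cut of the tissue were also compared. In the circadian clock list Npas2 read 6.94 in nude and 8.31 in wild-type nerve and differed by -0.91 and -0.75 in DRG and cord, but its other probe gave 1.76 in nerve. Of 16 measured members in nerve 2 were lower and 1 higher (median -0.19), with Usp2 2.35-fold lower and Bmal1, named after its values were seen, at 1.09. Of 14 in DRG 2 were lower and 0 higher, where Tef and Per1 were 2.33- and 2.29-fold lower in DRG. Of glucocorticoid-induced genes Cdkn1a was 2.28-fold lower in nerve by its brightest probe, whereas its other probe gave 0.18, and Map3k6 was 3.33-fold higher in cord. Fos, an immediate early gene, read 4.98 in nude and 3.85 in wild-type DRG and 5.35 and 5.95 in nerve. Egr3 was at least 2.06-fold lower in nerve, Arc at least 2.40-fold higher in nerve and Egr4 at least 2.52-fold higher in cord. Among the 16 measured genes of repair Schwann cells in DRG, Igfbp5 was 3.11-fold higher and differed by -0.33 on the injected side, and Gfap differed by -1.02 (a bound). Of endothelium and pericyte genes 1 was 2-fold apart in the 3 tissues, which was Flt1 in cord. Hoxa11 in nerve and Hoxd12 in DRG were at least 2.20- and 2.65-fold higher in nude rats, both well above background on the nude array only. Krt33b was 2.36-fold lower in nerve and Krt15 at least 2.72-fold higher in DRG, both keratins of hair or skin.

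Several lists had no member 2-fold apart in any tissue. Cholesterol synthesis genes ran from -0.91 to 0.91, but 22 of 24 were below 0 in DRG (median -0.35). Glutathione and xenobiotic enzymes ran from -0.85 to 0.67, with 0.25, -0.06 and -0.23 for Gsta1. Heat shock genes ran from -0.51 to 0.58, with -0.12, -0.09 and -0.06 for Hspa8. Mast cell genes ran from -0.88 to 0.71, where Cpa3, a mast cell protease, gave 0.06, -0.42 and -0.88. Thoracic Hox genes ran from -0.41 to 0.57, with 0.02, 0.33 and 0.57 for Hoxa7, and 4 melanocyte genes from -0.52 to 0.20.

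**Figure D5:**
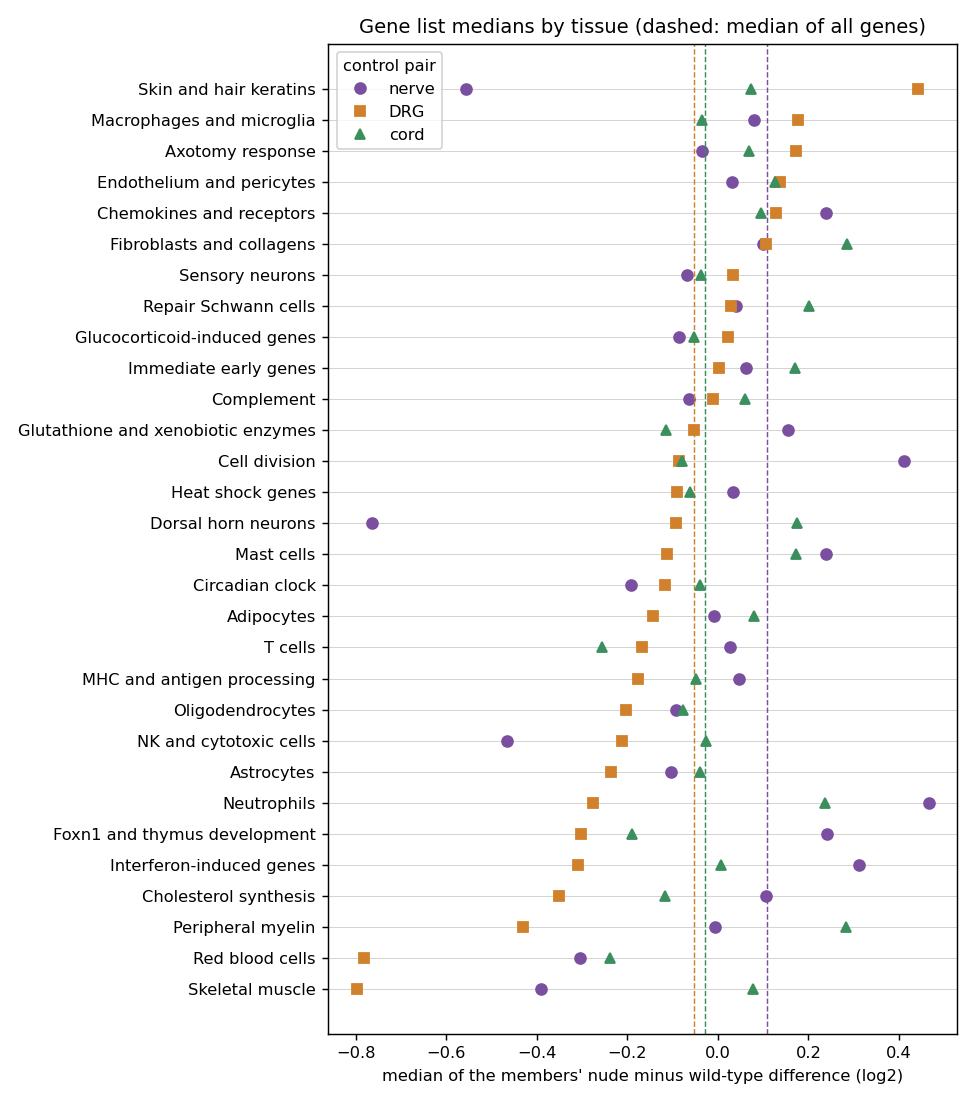
Median difference between rat types (nude minus wild-type, log2) over the measured members of each gene list with at least 5 measured members in every tissue, in nerve (circles), DRG (squares) and cord (triangles); dashed lines are the medians of all genes. Dorsal horn genes lie at -0.76 in nerve, muscle and red blood cell genes at -0.80 and -0.78 in DRG, and interferon-induced genes at 0.31 in nerve and -0.31 in DRG.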

How the data were processed

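Cy3-labelled total RNA of 12 tissue pools was measured on Agilent SurePrint G3 Rat arrays. The spot intensity values were made by the authors with Agilent Feature Extraction, which subtracted background and removed spatial trends, with no step between arrays. The submitters' processing notes give version 10.5, the file headers a later one. The deposited log2 values of 30507 probes were made by the authors in GeneSpring GX. The methods name normalization to the median, but after sorting, the 12 columns are equal to within 0.00153, the pattern that quantile normalization leaves. The other deposited values used are flags of 0 or 1 that the authors' software set per spot, and a probe counted as well above background when at least 50% of its spots did.

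Probes were named through RefSeq accessions in a GRCr8 gene table (18006 of 30367 probes, 15159 genes), and a gene took its brightest probe. A gene entered a tissue when well above background on at least 1 array of the pair, unless the bound had the opposite sign. limma 3.58.1 (R 4.3.3) fitted tissue plus rat type to the 6 control arrays, for genes well above background on all 3 arrays of at least 1 rat type, with Benjamini-Hochberg adjustment. The fit was tested on simulated data. Precision is limited by the number of arrays.

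The text names up to 10 genes per direction in all 3 tissues, the 5 largest per direction in each tissue alone, up to 4 members per list, the 3 largest opposite genes, and Foxn1, Ptprc, Y-linked genes and Xist. Others are said to be named after their values were seen. Members, lists and settings were chosen with earlier results of these data known. Alternatives were median centring, the 75th percentile, cyclic loess, normexp (offset 50, median spot signals), no filter and no floor, both arrays above background, the mean over probes, 1.5-fold and 3-fold thresholds, an adjusted p of 0.1, no tissue block, leaving out each pair, the injected-side arrays, and all 12 arrays. Some results are not reported here.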

Additional observations from a re-analysis of the deposited data

Results flagged for a closer look

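In all, 32 genes were at least 2-fold apart in opposite directions in 2 control tissues, and 5 of them were named by the rules used here. With 1 array per rat type and tissue, the difference between tissues was not tested. Pced1b, of the PC-esterase family, differed by -2.80 in nerve and by at least 3.85 in DRG, and by -0.85 and -0.04 (a bound) on the injected side. Ing3, a subunit of a histone acetyltransferase complex, differed by -2.22 in nerve and 3.17 in DRG, and by -2.66 and -0.20 on the injected side. Cx3cr1, the fractalkine receptor of microglia and monocytes, differed by -2.0 in nerve and 1.45 in DRG, and by 0.10 and 0.35 on the injected side. Usp18 differed by 1.13 in nerve and -1.73 (a bound) in DRG, and its other probe gave 0.92 and -1.52. On the injected side Usp18 differed by -2.46 (a bound) in nerve, opposite to the PBS-side pair, and by -1.29 (a bound) in DRG. Reg3a differed by 4.32 in DRG and by -1.07 (a bound) in cord, where it was not well above background in nude rats, and by 3.82 in the injected-side DRG.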

How the results depend on the processing

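Vegfb was the 1 gene at least 2-fold higher in all 3 control tissues with median centring, the 75th percentile and cyclic loess. Counts that differed by more than 1.5 times from those above are given here, and the cause was not tested unless stated. Median centring left 1 gene lower in all 3 tissues and 96 lower in cord, and limma then called 1 gene higher (Vegfb) and 1 lower (Vpreb1b). The 75th percentile gave 84 higher and 486 lower in nerve and 104 lower in cord. Cyclic loess gave 1 lower in all 3 tissues, 273 higher in nerve and 89 lower in cord. normexp, whose offset compresses dim signals by construction, gave 0 higher and 0 lower in all 3 tissues, 2 and 59 in nerve, 21 and 59 in DRG and 5 and 1 in cord, and the difference of Vegfb in DRG was then 0.89. With no filter and no floor there were 3 higher and 5 lower in all 3 tissues, 368 and 509 in nerve, 508 and 720 in DRG and 185 and 167 in cord. Requiring both arrays above background, which tests fewer genes and leaves out Vegfb, gave 0 and 1 in all 3 tissues, 36 higher in nerve, 156 lower in DRG and 48 higher and 18 lower in cord. At 3-fold 0 were lower in all 3 tissues, and 13 were higher and 67 lower in nerve, 33 and 73 in DRG and 33 and 3 in cord. At 1.5-fold there were 5 and 16 in all 3 tissues, 774 and 855 in nerve, 636 and 1071 in DRG and 411 and 344 in cord. The injected-side arrays gave 3 and 0 in all 3 tissues, 268 higher in DRG and 185 higher in cord. Leaving out 1 pair gave 3 (without DRG) to 5 (without cord) genes higher in the remaining tissues and 6 (without DRG) to 12 (without cord) lower. limma called 1 higher and 1 lower without the DRG pair, 1 higher and 0 lower without the cord pair and 0 without the nerve pair. It called 5 higher and 2 lower over all 12 arrays and 1 higher (Vegfb) at an adjusted p of 0.1. With the other settings limma called 0 genes, and without the tissue block 30 had an unadjusted p under 0.05. The adjusted p of Vegfb ran from 2.29e-06 without the DRG pair to 1 without the tissue block. Npas2 in nerve turned from -1.37 to 0.20 with the mean over all probes. No paired analysis was possible because each rat type and tissue has 1 array, and its replicate number marks no shared animal. The tissue block stands in its place.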

Other observations

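Probes without a gene name took no part in the counts of genes. Among 17886 probes measured in every control tissue, 3 passed 2-fold in favour of nude rats in each tissue and 3 in favour of wild-type rats. The 6627 unnamed probes held 2 of the former and 1 of the latter.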
